A study of Mus musculus with 4 samples.

Results

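The CDK inhibitor genes are 7 mouse genes in 2 families, and they were compared between embryos that lack Cop1 and control embryos. All probe sets whose only gene in the platform's annotation is Cdkn1a, Cdkn1b, Cdkn1c, Cdkn2a, Cdkn2b, Cdkn2c or Cdkn2d were taken, which gave 9 of 45037 tested probe sets and 7 of 18193 genes. RNA came from whole embryos at embryonic day 9.5. The Cop1-null group was 1 pool of RNA from 6 null embryos, and the control group was 1 pool of RNA from 6 embryos that were wild type or heterozygous, although the titles call these arrays wild type. Each pool was divided into 2 portions, each put on 1 array, so the p-values below rest on the spread between portions of the same RNA and compare 2 pools, with no replicate of the genotype itself. The sources used here give neither the Cop1 allele nor the strain, and a pool hides the differences between its embryos.

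CDK inhibitors hold back the cyclin-dependent kinases that drive a cell through its division cycle. The CIP/KIP proteins p21 (Cdkn1a), p27 (Cdkn1b) and p57 (Cdkn1c) bind complexes of cyclin and kinase, chiefly those of CDK2, and act in cells that leave the cycle to differentiate or that stop after damage. The INK4 proteins p16 (Cdkn2a), p15 (Cdkn2b), p18 (Cdkn2c) and p19 (Cdkn2d) bind CDK4 and CDK6 alone and keep D cyclins from them, so that the RB protein stays active and E2F factors stay silent. COP1 itself recognises substrates for a ubiquitin ligase, through which JUN and ETV factors are sent for degradation.

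Members were read against the whole series. Log2 expression values had array medians of 6.09 and 6.09 in the null portions and 6.03 and 6.03 in the control portions. Across probe sets, which are not replicates, Pearson's r was 0.998 between portions of either pool and 0.980 to 0.982 between pools. The Cop1 probe set read 9.67 and 9.77 in the null portions, against 11.35 and 11.26 in the control portions, and fell by 1.58 log2 units (SE 0.08, limma, adjusted p = 0.000728). Whether this probe set lies within the deleted sequence cannot be read from the files. As whole-embryo markers, all 13 measured for neurons, 10 for endothelium and 8 for primitive erythroid cells read above the median of all probe sets. Below it lay 3 of 7 myotome, 2 of 10 surface epithelium and 1 of 9 heart muscle markers, beside 6568 of all 18193 genes. Of 5 markers of trophoblast and decidua, 3 read below the lower quartile, beside 2923 of all genes. A gene is said to have risen or fallen where its adjusted p (limma) was under 0.05 and its change at least 1.5-fold. By that rule 652 genes rose (3.58%) and 1467 fell (8.06%). With the arrays centred on the poly-A spike controls, the counts were 380 and 2848, and the median over all genes was -0.22 in place of -0.02. The spike means were 8.03 and 8.16 in the null portions, against 7.80 and 7.99 in the control portions. They thus differed between portions of the same pool too, which limits the precision of every value with this centring.

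The promoters of the 3 inhibitor genes that changed are shown first, because Cdkn1a and Cdkn2c each have 2 annotated starts with unlike sequences. RefSeq (GRCm38.p6) has windows for 6 of the 7 members, 9 windows in all. Each line below is the 250 bases before a start, 5′ to 3′ on the gene's strand. Capitals mark a p53 site in the line for the upstream Cdkn1a start, GC boxes (GGGCGG) in the lines for the downstream Cdkn1a and the upstream Cdkn2c start, GC and CCAAT boxes in that for Cdkn1b, and the hypoxia response core ACGTG, on either strand, in the line for the downstream Cdkn2c start.
Cdkn1a upstream start, chr17:29090729-29090978, plus strand: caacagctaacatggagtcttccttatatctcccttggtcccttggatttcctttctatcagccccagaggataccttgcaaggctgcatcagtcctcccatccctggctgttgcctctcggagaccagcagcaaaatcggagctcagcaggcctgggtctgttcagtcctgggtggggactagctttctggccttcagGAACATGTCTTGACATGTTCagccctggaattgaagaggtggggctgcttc
Cdkn1a downstream start, chr17:29093519-29093768, plus strand: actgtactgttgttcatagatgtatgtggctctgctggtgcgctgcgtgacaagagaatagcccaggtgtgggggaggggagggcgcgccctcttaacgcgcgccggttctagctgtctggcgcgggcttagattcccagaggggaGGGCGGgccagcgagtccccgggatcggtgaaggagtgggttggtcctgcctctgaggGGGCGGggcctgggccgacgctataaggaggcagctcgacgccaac
Cdkn1b, chr6:134920151-134920400, plus strand: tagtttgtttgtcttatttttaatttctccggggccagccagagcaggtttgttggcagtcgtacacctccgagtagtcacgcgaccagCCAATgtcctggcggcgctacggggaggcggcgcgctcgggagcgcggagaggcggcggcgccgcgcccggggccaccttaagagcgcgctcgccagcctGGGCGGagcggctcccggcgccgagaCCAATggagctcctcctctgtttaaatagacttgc
Cdkn2c upstream start, chr4:109666757-109667006, minus strand: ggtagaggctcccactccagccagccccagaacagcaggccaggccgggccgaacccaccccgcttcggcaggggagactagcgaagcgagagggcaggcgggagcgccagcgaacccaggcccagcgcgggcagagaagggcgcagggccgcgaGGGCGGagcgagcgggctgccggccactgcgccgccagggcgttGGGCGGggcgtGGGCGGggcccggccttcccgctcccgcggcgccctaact
Cdkn2c downstream start, chr4:109665373-109665622, minus strand: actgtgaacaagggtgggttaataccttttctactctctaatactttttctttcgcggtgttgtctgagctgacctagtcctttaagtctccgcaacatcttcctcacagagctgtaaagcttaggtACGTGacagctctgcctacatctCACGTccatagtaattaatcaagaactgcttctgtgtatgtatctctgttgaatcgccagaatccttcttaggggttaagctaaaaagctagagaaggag

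The p53 site, a pair of decamers with no spacer and at most 1 mismatch, a limit chosen after the sequence was seen, begins 51 bases before the upstream Cdkn1a start. It occurred in 0.0578% of 32851 such windows. The downstream Cdkn1a window has 2 GC boxes, at 104 and 46 bases before the start, and 19 CpG dinucleotides, where the upstream one has 2. The single Cdkn1b window has CCAAT boxes at 161 and 35 bases before the start, a GC box and 28 CpG. The upstream Cdkn2c window has 3 GC boxes and 29 CpG, and the downstream one has 2 copies of ACGTG and 6 CpG, the median of all windows. GC boxes were found in 5 of 9 member windows and 32.7% of all windows, CCAAT in 2 of 9 and 33.8%, and ACGTG in 1 of 9 and 16.6%. The E2F letters TTTNGCGC were in the downstream Cdkn2a window only, and in 1.13% of all windows. TGANTCA (AP-1, 6.75%), TGATGNAA (ATF4, 3.45%), CCGGAAG (ETS, 6.91%) and GTAAACA (FOXO, 3.17%) were in 0 of 9 member windows. Both strands were searched. The array values do not tell which start was used.

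Of the 7 inhibitor genes, Cdkn1b and Cdkn1a rose in the null pool, Cdkn2c fell, and the other 4 did neither. These are 2 of 3 CIP/KIP genes risen and 0 fallen, and 0 of 4 INK4 genes risen and 1 fallen, beside 3.58% risen and 8.06% fallen among all genes. The median difference was 0.65 log2 units over the CIP/KIP genes and -0.04 over the INK4 genes, against -0.02 over all genes. The null and control arrays did not overlap in 5 of the 7 genes, which is close to the 68.2% of all genes for which this held. Of the 9 probe sets it held for 7, against 65.3% of all probe sets, so the lack of overlap by itself sets no member apart. In bulk RNA of whole embryos, more cells that express an inhibitor and more RNA of it per cell cannot be told apart.

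**Figure D1:**
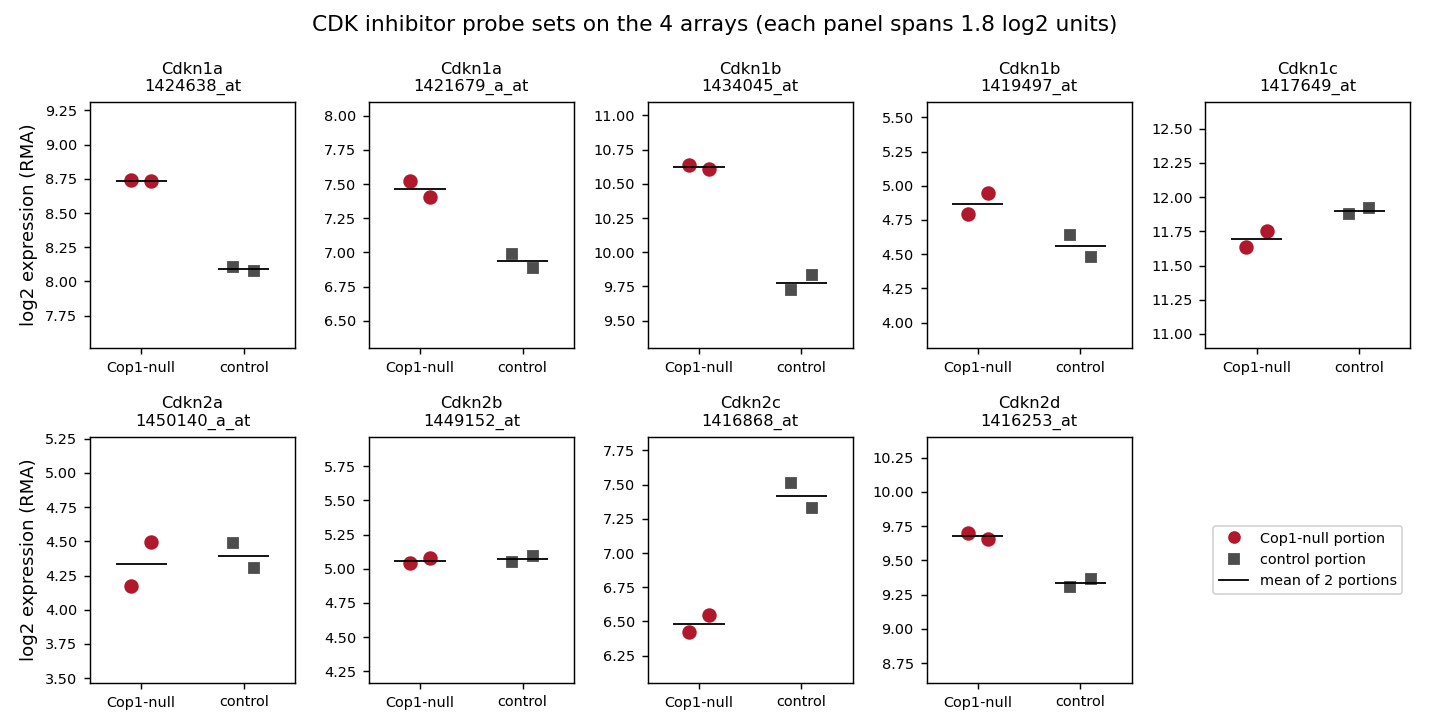
Log2 expression (RMA, vertical axis) of the 9 CDK inhibitor probe sets in the 2 Cop1-null portions (circles) and the 2 control portions (squares), with the mean of each pair as a line. Both Cdkn1a and both Cdkn1b probe sets are higher in the null portions, Cdkn2c is lower, and the portions overlap for Cdkn2a and Cdkn2b.

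Among the CIP/KIP genes, Cdkn1b had the greater rise. It encodes p27, which accumulates as cells leave the cycle and is removed through the SKP2 ligase when they enter it. Its probe set 1434045_at read 10.64 and 10.61 in the null portions, against 9.72 and 9.83 in the control portions. Both null portions were higher than both control portions, by 0.78 log2 units at the narrowest. The means were 10.62 ± 0.02 in the null pool and 9.78 ± 0.08 in the control pool (SD, n = 2 portions), a rise of 0.84 (SE 0.07), or 1.79-fold (limma, adjusted p = 0.0019). The second Cdkn1b probe set, 1419497_at, read 4.79 and 4.94 in the null portions, against 4.64 and 4.48 in the control portions, near the lower quartiles of the arrays (4.39 to 4.47). It was also higher in the null portions, with a smaller difference of 0.31 that missed the threshold (limma, adjusted p = 0.064). The 95% intervals, 0.66 to 1.03 and 0.07 to 0.55, did not overlap, so the size of the Cdkn1b rise depends on the probe set. With both probe sets averaged the gene lay just under the fold limit (0.58, adjusted p = 0.00162).

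Cdkn1a encodes p21, which is switched on by p53 after DNA damage and by many other stresses, and which also binds the replication clamp PCNA. Probe set 1424638_at read 8.74 and 8.73 in the null portions, against 8.10 and 8.07 in the control portions. The null portions differed by 0.01 and the control portions by 0.03, far less than the 0.63 that separated the groups at the narrowest. Means were 8.74 ± 0.0043 in the null pool and 8.09 ± 0.02 in the control pool (SD, n = 2 portions), a rise of 0.65 (SE 0.06), or 1.57-fold (limma, adjusted p = 0.0025). The second probe set, 1421679_a_at, read 7.52 and 7.41 in the null portions, against 6.99 and 6.89 in the control portions. It differed by 0.52 (SE 0.08, adjusted p = 0.00851), 1.44-fold, and so passed the threshold on p but lay under the fold limit. The intervals of the 2 probe sets, 0.49 to 0.81 and 0.32 to 0.73, overlapped. With the arrays centred on the poly-A spikes, the Cdkn1a rise came to 0.45 and was under the fold limit. With median centring it was 0.585, barely past that limit.

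Cdkn1c encodes p57, which is expressed from the maternal chromosome and is known in mice as the CIP/KIP gene that development cannot do without. Its probe set read 11.63 and 11.75 in the null portions, against 11.88 and 11.92 in the control portions. The null portions were the lower ones, but the groups were only 0.13 apart at the narrowest. The difference was -0.21 (95% interval -0.40 to -0.02) and missed the threshold after adjustment (limma, adjusted p = 0.092). It passed on p, still under the fold limit, with median centring (-0.27, adjusted p = 0.0435), with poly-A spike centring (-0.41, adjusted p = 0.0471), with the lowest 40% of probe sets by level removed (adjusted p = 0.0458) and with a variance trend and robust fit (adjusted p = 0.00345), while with 1 array left out it was 0.113 to 0.282. Cdkn1c thus lay on the other side of 0 from Cdkn1a and Cdkn1b.

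Among the INK4 genes, Cdkn2c was the one that fell. It encodes p18, known in mice from dividing progenitors, those of the nervous system among them. It read 6.42 and 6.55 in the null portions, against 7.51 and 7.33 in the control portions. All null values were lower than all control values, by 0.78 at the narrowest. Means were 6.48 ± 0.09 in the null pool and 7.42 ± 0.13 in the control pool (SD, n = 2 portions), a difference of -0.94 (95% interval -1.18 to -0.69, limma, adjusted p = 0.00288). The level in the control pool was 1.91-fold that in the null pool.

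Cdkn2d encodes p19INK4d, known in mice from neurons that have left the cycle. It read 9.70 and 9.65 in the null portions, against 9.31 and 9.36 in the control portions, so that it was higher in both null portions, the opposite side from Cdkn2c. The difference was 0.34 (95% interval 0.17 to 0.51, limma, adjusted p = 0.0168), or 1.27-fold, which passed the threshold on p and not the fold limit. The adjusted p was over 0.05 whichever array was left out (0.069 to 0.0907), and with poly-A spike centring the difference was 0.14 (adjusted p = 0.535). Cdkn2b encodes p15, an inhibitor induced by TGF-beta, and read 5.04 and 5.08 in the null portions, against 5.05 and 5.09 in the control portions. The portions of the pools overlapped, and the interval of the difference, -0.17 to 0.15, does not reach a 1.5-fold change in either direction between these pools.

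Cdkn2a encodes p16 and, from another reading frame, ARF, which holds MDM2 away from p53. Its probe set read 4.18 and 4.49 in the null portions, against 4.49 and 4.30 in the control portions, near the lower quartiles of the arrays. The null portions were 0.32 apart, the widest gap between portions among the 9 probe sets, and the groups overlapped. The difference was -0.06 (95% interval -0.40 to 0.28, limma, adjusted p = 0.782). A single probe set is listed for the gene, and the annotation does not say whether it reads the p16 transcript, the ARF transcript or both. As no detection call comes with these values, whether Cdkn2a and Cdkn2b RNA was present cannot be read from them.

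**Figure D2:**
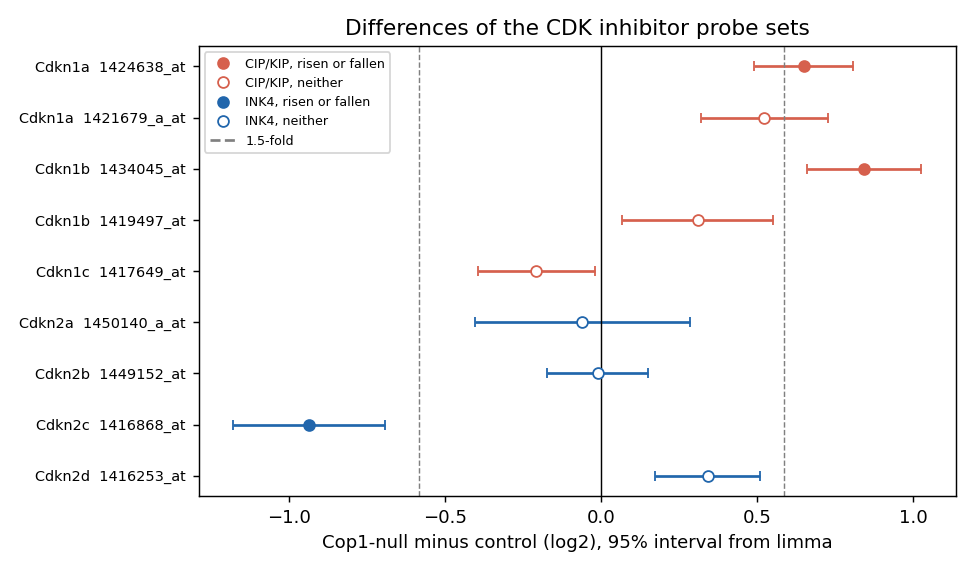
Difference between the Cop1-null and the control pool (log2, horizontal axis) for each CDK inhibitor probe set, with 95% intervals from limma over 2 portions a pool. Filled points rose or fell, and dashed lines mark 1.5-fold. Cdkn1a 1424638_at (0.65) and Cdkn1b 1434045_at (0.84) lie past the upper line and Cdkn2c (-0.94) past the lower one.

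Set against each other as families by the mean of log2 values, CIP/KIP genes were higher and INK4 genes lower in the null pool. Neither family moved as 1 block. The mean log2 value of the 3 CIP/KIP genes was 10.34 and 10.36 in the null portions and 9.90 and 9.94 in the control portions, a difference of 0.43. That of the 4 INK4 genes was 6.33 and 6.44 in the null portions and 6.59 and 6.52 in the control portions, a difference of -0.17. The CIP/KIP difference minus the INK4 difference was 0.59. It is given as a description with no test, since the genes were chosen with earlier results known. Each family has a member on the opposite side. Without Cdkn1c the CIP/KIP mean difference was 0.75, and without Cdkn2c the INK4 mean difference was 0.09, so that the sign of the INK4 mean rests on that gene. Without Cdkn1b, Cdkn2c or Cdkn1c in turn, the difference between the families was 0.39, 0.34 or 0.91. Summed linear values were higher in the null portions for both families. The INK4 sums were 967 and 955 in the null portions, against 871 and 872 in the control portions. Cdkn2d made up 72.7% to 85.9% of them. Without Cdkn2d they were 137 and 150, against 238 and 215. The CIP/KIP sums were 5195 and 5433 in the null portions, against 4888 and 5060 in the control portions.

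The cyclins and kinases that these proteins inhibit had mostly negative differences. Of 5 D cyclin and CDK4 or CDK6 genes, 1 fell and 0 rose, and all 5 differences were negative (-0.91 to -0.17, median -0.47). The one that fell was Ccnd1, the cyclin that carries growth signals to CDK4 and CDK6 (-0.91, SE 0.06, limma, adjusted p = 0.00132). For Cdk4, Ccnd2 and Ccnd3, 1 other probe set each passed both limits. The count and the signs thus hold for the probe sets that stood for these genes. Of 7 measured genes of E, A and B cyclins with CDK2 and CDK1, 2 fell and 0 rose, and 6 differences were negative (median -0.28). These were the cyclin E genes, Ccne1 (-1.57) and Ccne2 (-0.62), whose proteins drive CDK2 into S phase. With control replicate 2 left out, Ccne2 differed by -0.54 and missed the fold limit, as it did with quantile normalization applied again (-0.56). Of 8 genes of the CDK-activating kinase and of the CDC25 phosphatases with their opposing kinases, 0 passed both limits (median -0.25). For 6 of them the unadjusted p (limma) was under 0.05, beside 8059 of all 18193 genes. The largest differences there were those of Wee1, a kinase that restrains CDK1 (-0.55), and Mnat1, a subunit of the activating kinase (0.43). The Wee1 result held under only 7 of 13 alternatives (-0.75 to -0.49 over all 13). Wee1 passed both limits with median centring (-0.61) and without control replicate 1 (-0.59), among others, and its other probe set fell (-0.68).

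Downstream of the kinases, 5 of 13 genes of the RB family and the E2F factors fell and 0 rose, with a median of -0.46. E2f3 (-1.47) and E2f2 (-1.06), activators of S phase genes, and E2f7 (-1.32), a repressor of the same genes, fell furthest. Tfdp1, the partner of E2F factors, fell by 0.60 log2 units. It lay under the fold limit without null replicate 2 (-0.56) and with quantile normalization applied again (-0.56). The other probe set of E2f3 did not pass the limits, and the average of both gave -0.72. Among genes of this list without a call, 2 of 3 other Rbl1 probe sets passed both limits. So did the other Rb1 probe set and 1 of 3 other Tfdp2 probe sets. Among 18 genes of S phase and proliferation 2 fell and 1 rose, with a median of -0.17. Plk1, a kinase of mitosis (-0.75), and Rrm2, which supplies deoxynucleotides (-0.63), fell. Tyms, the thymidylate synthase gene, rose by 0.68, but another of its probe sets fell (-1.51), and the rise was lost without control replicate 1 (0.52), null replicate 1 (0.80, adjusted p = 0.0553) or null replicate 2 (0.55). All these counts stand beside 3.58% risen and 8.06% fallen among all genes.

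**Figure D3:**
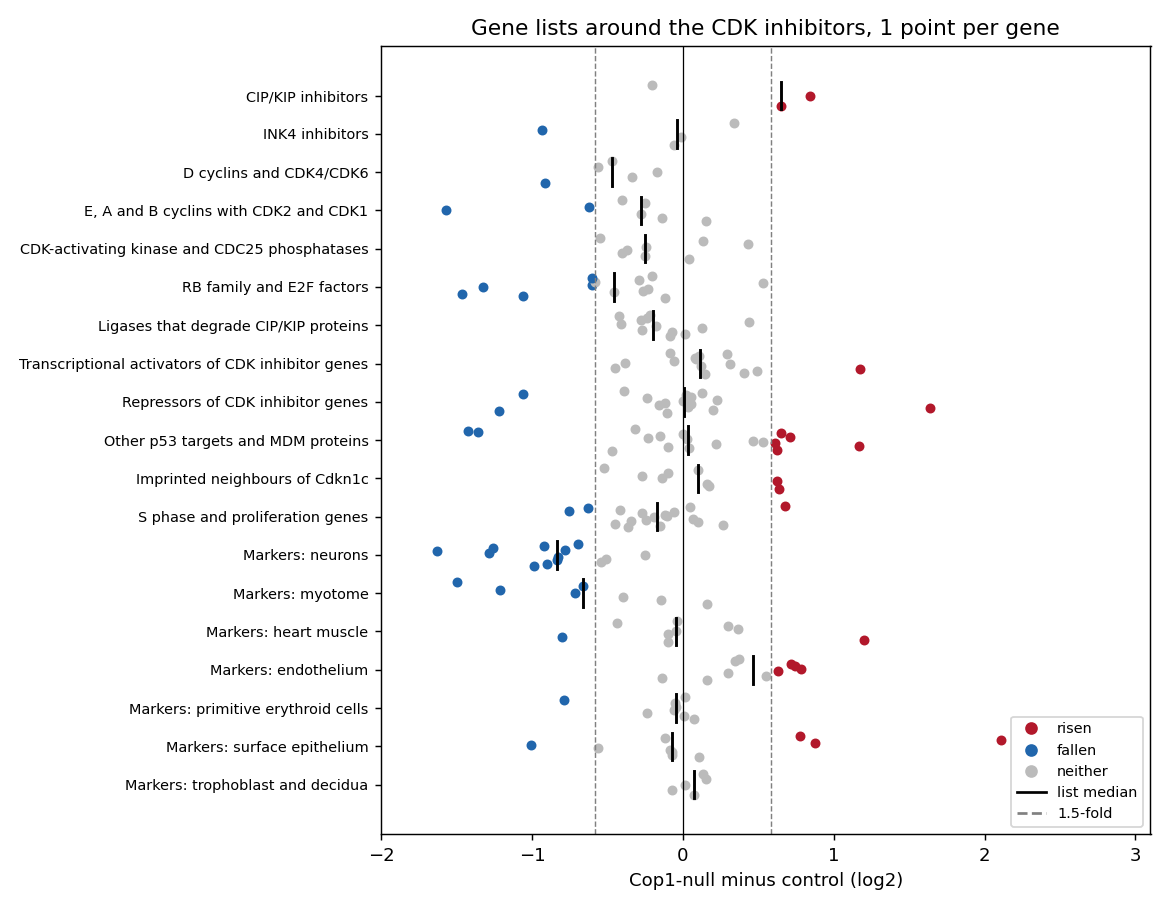
Difference between the Cop1-null and the control pool (log2, horizontal axis) for the genes of each list, 1 point per gene, with the list median as a black line and 1.5-fold as dashed lines. The CIP/KIP median is 0.65 and the INK4 median -0.04, while the medians of the cyclin, kinase and E2F lists lie between -0.47 and -0.25.

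Genes that govern the inhibitors were measured on the same arrays. Of 12 genes of the ligases that degrade CIP/KIP proteins, 0 passed both limits (median -0.20). An unadjusted p under 0.05 (limma) was found for 8 of them, beside 8059 of all 18193 genes. The largest differences were Rbx1, a RING subunit shared by cullin ligases (0.44, adjusted p = 0.0101), and Skp2, the receptor for p27 (-0.42, limma, adjusted p = 0.00899). Dtl, another gene of this list, differed by -0.18, but 4 of its 5 other probe sets passed both limits, counted in either direction. The count of 0 thus depends on the probe set that stood for Dtl. Of 14 measured transcriptional activators of inhibitor genes 1 rose and 0 fell (median 0.12). It was Foxo3, a FOXO factor that switches on Cdkn1b in many cells, which read 9.99 and 9.84 in the null portions, against 8.65 and 8.83 in the control portions. Its rise was 1.17 (SE 0.10), 2.26-fold (limma, adjusted p = 0.00177), and 1 of its other 2 probe sets rose as well. Repressors gave 1 rise and 2 falls among 16 (median 0.01). Cbx8 (1.64) rose and Cbx2 (-1.22) fell, both chromodomain subunits of Polycomb complexes, which silence the Cdkn2a locus, and so did Tbx2 (-1.06), a T-box repressor of Cdkn2a and Cdkn1a. The other probe set of Cbx8 did not pass the limits, and the average of both gave 0.73, while that of Cbx2 fell too.

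Other targets of p53, which share that regulator with Cdkn1a, and the MDM genes moved in both directions. Of 18 measured, 5 rose (27.8%, beside 3.58% of all genes) and 2 fell (11.1%, beside 8.06%), and the median was 0.03. An unadjusted p under 0.05 (limma) held for 12 of them, beside 8059 of all 18193 genes. Eda2r, a death receptor gene (1.17), and Plk2, a stress-induced kinase gene (0.71), rose. So did Sesn2, a stress-induced regulator of growth signalling (0.65), Bbc3, which encodes the death protein PUMA (0.63), and Gadd45a, a gene of the DNA damage response (0.61). With poly-A spike centring these 3 and Plk2 lay under the fold limit (0.45, 0.43, 0.41 and 0.51). Sesn2 was also lost without null replicate 2 (0.58), Bbc3 without null replicate 1 (0.54) or control replicate 2 (0.57), and Gadd45a without null replicate 1 (0.57) or control replicate 1 (0.53). The calls of Bbc3 and Gadd45a each held under 9 of 13 alternatives. Without control replicate 1 the other Sesn2 probe set stood for the gene, at 1.12, so that value reflects a change of probe set. The average of both Sesn2 probe sets gave 0.96. Trp53inp1 (-1.43) and Tigar (-1.36), a regulator of glycolysis, fell, and neither of the other 2 Tigar probe sets passed the limits. Averaged over all their probe sets, Plk2 differed by 0.35 and Tigar by -0.70. Of the 9 imprinted neighbours of Cdkn1c, 2 rose and 0 fell (median 0.10). Kcnq1ot1, the noncoding RNA of the paternal chromosome that silences Cdkn1c on that copy, differed by 0.62 (limma, adjusted p = 0.0049). None of its other 5 probe sets passed the limits, and the average of all 6 gave 0.20. Its call was lost without control replicate 2 (0.58) or null replicate 1 (0.56) and with median centring (0.56). It held under 8 of 13 alternatives. Ascl2, a transcription factor gene of the placenta expressed from the maternal chromosome, rose by 0.64, and its other 2 probe sets rose as well. That rise was lost without control replicate 2 (0.45), null replicate 1 (0.54) or null replicate 2 (0.74, which missed the threshold on p). Ascl2 also lay under the fold limit with median centring (0.58) and with quantile normalization applied again (0.57).

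Markers of several cell types differed between the pools alongside the inhibitors, and their part in the inhibitor differences was not tested. Of 13 neuron markers 10 fell and 0 rose (median -0.84), led by Neurod4 (-1.63), Neurod1 (-1.29), Nhlh2 (-1.26) and Chrna3 (-0.99). Their summed linear values were 9205 and 9256 in the null portions, against 14654 and 14453 in the control portions. Of 7 myotome markers 4 fell and 0 rose (median -0.66), the muscle regulators Myog (-1.49), Myf6 (-1.21), Myf5 (-0.72) and Myod1 (-0.66), the last not without control replicate 1 (-0.51), null replicate 1 (-0.75, adjusted p = 0.0624) or null replicate 2 (-0.57), and it differed by -0.35 with its probe sets averaged. The sums over the 7 were 6741 and 6776 in the null portions and 6412 and 6368 in the control portions, but Actc1, an actin gene that heart muscle also expresses, made up 88.4% to 93.5% of them. Without Actc1 they were 450 and 441 in the null portions, against 743 and 727 in the control portions.

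Of 10 endothelial markers 4 rose and 0 fell (median 0.46), the genes Icam2 (0.78), Kdr (0.74), Pecam1 (0.72) and Esam (0.63), with sums of 4492 and 4445 in the null portions, against 3276 and 3211 in the control portions. With poly-A spike centring all 4 lay under the fold limit, at 0.58, 0.55, 0.52 and 0.43 in the same order. The calls of Icam2, Kdr and Pecam1 held under 12 of 13 alternatives and that of Esam under 11. In surface epithelium 3 of 10 markers rose, Krt19 (2.11), Krt18 (0.87) and Krt8 (0.78), and Krt14 fell (-1.01, or -0.62 with its probe sets averaged), with sums of 5274 and 5188 in the null portions and 3272 and 3244 in the control portions. The median of that list was -0.07 and 6 of its 10 differences were negative, with Cdh1 (0.11), Epcam (-0.07), Grhl2 (-0.08) and Esrp1 (-0.07) near 0. Krt8 lay under the fold limit with poly-A spike centring (0.58). Heart muscle had 1 rise, Myh7 (1.20), and 1 fall, Myl2 (-0.80), among 9. The sums there were 8472 and 8402 in the null portions and 8456 and 8416 in the control portions. Primitive erythroid cells had 1 fall among 8, that of the factor gene Klf1 (-0.79), with sums of 67373 and 66562 in the null portions and 69432 and 69581 in the control portions. Of the 5 measured markers of trophoblast and decidua 0 passed the limits (-0.07 to 0.15), with sums of 375 and 392 in the null portions and 366 and 378 in the control portions. Among them 0 had an unadjusted p under 0.05 (limma), beside 8059 of all 18193 genes.

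**Figure D4:**
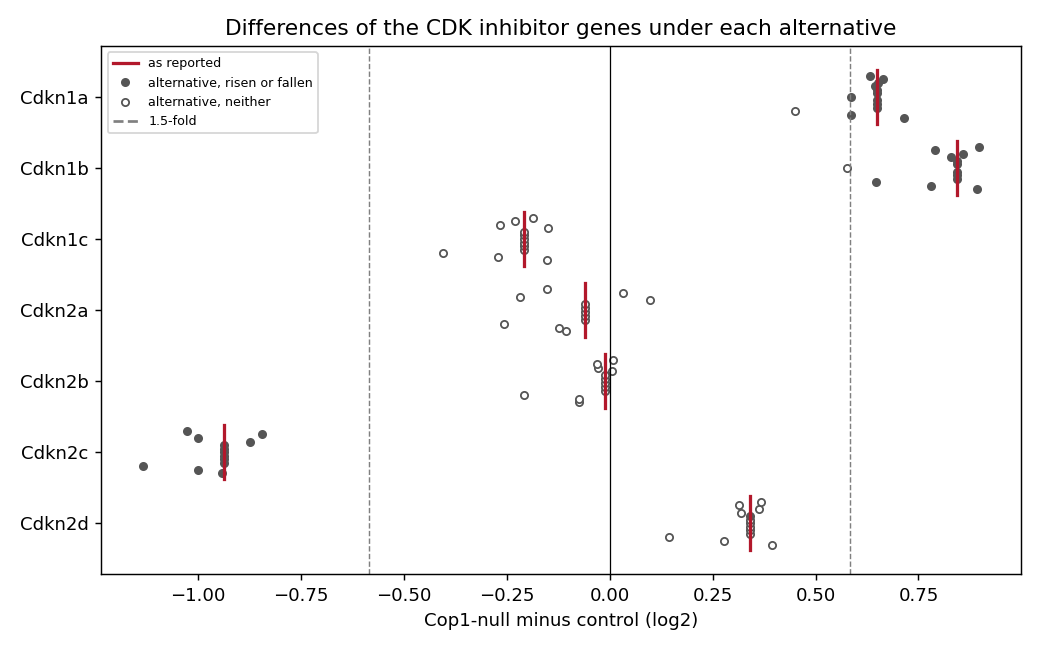
Difference between the Cop1-null and the control pool (log2, horizontal axis) of each CDK inhibitor gene as reported (red line) and under each alternative processing (points, filled where the gene rose or fell). Cdkn2c stays between -1.13 and -0.84, and Cdkn1a and Cdkn1b each have 1 open point, under the upper dashed line of 1.5-fold.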

How the data were processed

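Gene expression was measured on Affymetrix arrays in RNA of whole mouse embryos. The authors deposited log2 expression values made with RMA (background correction, quantile normalization and a summary per probe set) in the affy package of R, per the submitters' processing notes, whose versions are not stated. RMA scales all arrays alike, so total RNA per embryo cannot be compared. Of 45101 probe sets, 64 Affymetrix controls were left out. The platform's annotation pairs 34945 of the 45037 tested probe sets with 1 gene, which gave 18193 genes, and the probe set with the highest mean stood for a gene. Counts over lists thus rest on 1 probe set per gene. In several lists other probe sets of genes without a call passed both limits, counted in either direction. Differences, null minus control, were fitted with limma 3.58.1 in R 4.3.3 (lmFit and eBayes, genotype as the only term) on all tested probe sets, with Benjamini-Hochberg adjustment over all of them. It was tested on simulated data. The number of arrays limits the precision. The alternatives changed the scaling, the dim probe set filter, the probe set rule, the variance model, the fold limit, a replicate block and the arrays included. The members, the gene lists and the tests were chosen with earlier results of these data known. From each list the text names up to 4 risen or fallen genes with the largest change, or 2 where none changed, except among markers of trophoblast and decidua. Sesn2, Bbc3, Gadd45a, Dtl, Actc1, Cdh1, Epcam, Grhl2 and Esrp1 are named outside that rule, chosen after their values were seen. Promoter sequences and gene order come from RefSeq (GRCm38.p6).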

Additional observations from a re-analysis of the deposited data

How the results depend on the processing

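Cdkn2c fell under all 13 alternatives (-1.13 to -0.84). Cdkn1a rose under 12 of 13 and Cdkn1b under 12 of 13. The exceptions were 0.45 for Cdkn1a with poly-A spike centring and 0.58 for Cdkn1b with all probe sets averaged. With median centring Cdkn1a was barely past the fold limit (0.585). Cdkn2d, at 0.34, counted as risen once the fold limit was dropped, but its adjusted p was 0.069 to 0.0907 with 1 array left out. Leaving out 1 array at a time gave 0.63 to 0.66 for Cdkn1a, 0.79 to 0.90 for Cdkn1b, -1.03 to -0.84 for Cdkn2c, -0.22 to 0.10 for Cdkn2a and -0.031 to 0.0081 for Cdkn2b, the last pair changing sign. With the dimmest 40% of probe sets left out, Cdkn2a and Cdkn2b had no value. The difference between the families was 0.54 to 0.65 with 1 array left out, 0.67 with quantile normalization applied again and 0.48 with all probe sets averaged. In a check added after the data were seen it was 0.48, 0.39, 0.91, 0.34 and 0.76 without Cdkn1a, Cdkn1b, Cdkn1c, Cdkn2c and Cdkn2d. Genes risen and fallen numbered 652 and 1467, 380 and 2848 with poly-A spike centring, 2192 and 3973 with no fold limit, and 1485 and 2116 where the probe set of greatest interquartile range stood for a gene. That rule also turned Tyms to -1.51 and Srsf3 to 1.46, and averaging turned Tyms to -0.26. The cause of these shifts was not tested. Replicate numbers are shared between the genotypes, and the sample titles do not say whether they pair the arrays. Portion differences correlated at only 0.06 between pools, which cannot settle this. With the replicate block 647 genes rose and 1455 fell, Cdkn1b had an adjusted p of 0.0102, and no member's call changed. Dim probe sets limit what can be said of Cdkn2a, Cdkn2b and the second Cdkn1b probe set.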

Other observations

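Genes beside the inhibitors in the genome were read on the same arrays, taking the nearest measured gene on each side in the RefSeq order. Of 12 such genes that are not inhibitors themselves, 5 had an adjusted p under 0.05 (limma) and 1 passed the fold limit too. Among all 18193 genes, 2192 rose and 3973 fell with no fold limit, and 11.6% passed both limits. The counts by themselves thus do not set the neighbours apart. The neighbour that passed both limits was Dmrta1, beside Cdkn2b, which read 4.03 and 4.09 in the null portions, against 4.60 and 4.86 in the control portions (-0.67). It missed the limits without null replicate 1 (-0.65, adjusted p = 0.0643), null replicate 2 (-0.70, adjusted p = 0.0601) or control replicate 2 (-0.54). For the other 4 the adjusted p was over 0.05 whichever array was left out, between 0.0501 and 0.14. Mtap, the enzyme gene on the other side of the Cdkn2a and Cdkn2b pair, differed by -0.37 (adjusted p = 0.0126). Faf1, beside the fallen Cdkn2c, lay on the other side of 0 at 0.37 (limma, adjusted p = 0.011), as did the noncoding 9630013D21Rik (0.32, adjusted p = 0.033). The 9630013D21Rik probe set was dim, with 2.96 and 3.11 in the null portions, against 2.72 and 2.70 in the control portions. All 4 values lay under the lower quartiles of the arrays. Srsf3, a splicing factor gene beside the risen Cdkn1a, differed by -0.40 (adjusted p = 0.00941), but another of its probe sets, which stood for the gene by interquartile range, differed by 1.46, so its direction depends on the probe set. With poly-A spike centring Faf1 differed by 0.17 and 9630013D21Rik by 0.13. The 7 others lay between -0.0041 and 0.28.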
